A study of Mus musculus with 8 samples.

Results

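The expression of 8 transcription factors that maintain spermatogonial self-renewal was followed across 8 germline stem (GS) cell lines. They were Zbtb16, Sall4, Dmrt1, Foxo1, Id4, Tcf15, Taf4b and Eomes, and their rows were taken by gene symbol. These are 8 of the 31010 genes in the expression table, and all 8 were among the 12000 genes that were tested, whose mean over the lines was 1 FPKM or more. FPKM counts fragments relative to transcript length and to a scale set for each library, so it can be compared between genes of different length. Tcf15 was included because its level leaned higher in the lines of the ICSI group. Its difference between the groups is therefore given as a description, without a test.

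The study asked whether intracytoplasmic sperm injection (ICSI), the injection of a sperm into an oocyte, leaves changes in the germline of the offspring. RNA was sequenced from GS cell lines, which are cultured spermatogonial stem cells grown with GDNF and FGF2. Control lines 29, 37, 44 and 45 came from F1 mice born after natural mating, and ICSI lines 11, 17, 20 and 21 from F1 mice born after ICSI. The labels give the genotype of all 8 lines as wild type, on the B6 background. The study's methods took the control sperm for ICSI from green mice, which carry a ubiquitous Egfp transgene, so the ICSI lines may carry it and the control lines may not. The lines were established from CD9-selected spermatogonia of mature testes and grown on feeder fibroblasts, which were reduced by brief plating on gelatin before RNA was taken. The line numbers match numbers that the study's supplement gives to individual F1 mice, although the labels do not state that each line came from its own mouse. The sample titles used 2 ways of naming, here termed label forms. Control lines 29 and 37 with ICSI lines 11 and 17 made up label form 1, and label form 2 consisted of control lines 44 and 45 with ICSI lines 20 and 21. The submitters' processing notes name different versions of the alignment and counting tools for the forms, whereas the study's methods name the same versions for all 8 libraries. The sample records of the 2 forms also fall in separate runs of numbers. What distinguished the forms is otherwise not given in the sources used here.

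Spermatogonial stem cells either renew themselves or give rise to differentiating spermatogonia, and transcription factors of several families hold this balance. GDNF, made by the somatic cells of the testis, drives self-renewal through its receptor GFRA1 and raises a set of transcription factors in the stem cells. ZBTB16 and SALL4 act largely through corepressor complexes, DMRT1 keeps spermatogonia out of meiosis, FOXO1 is held in the cytoplasm when PI3K and AKT signaling is active, ID4 blocks basic helix-loop-helix proteins, and TAF4B is a germ cell subunit of the general factor TFIID.

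The promoters of Foxo1, Id4 and Eomes are shown because the RefSeq table used here held them among the 8 factors, and they let the promoter composition of these genes be compared. The sequences are RefSeq on GRCm38.p6. Each is the 250 bases before the RefSeq start, read 5′ to 3′ on the plus strand that all 3 genes use. The gene positions given further below are those of GENCODE M21, whose starts differ from these. Capitals mark CCAAT or GGGCGG on either strand (ATTGG and CCGCCC on the printed strand).
Foxo1, chr3:52268087-52268336: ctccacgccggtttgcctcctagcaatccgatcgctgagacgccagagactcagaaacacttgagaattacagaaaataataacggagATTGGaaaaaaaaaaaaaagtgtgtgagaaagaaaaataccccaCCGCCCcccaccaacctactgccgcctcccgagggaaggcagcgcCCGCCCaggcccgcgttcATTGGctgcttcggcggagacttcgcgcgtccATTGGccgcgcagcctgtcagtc
Id4, chr13:48260866-48261115: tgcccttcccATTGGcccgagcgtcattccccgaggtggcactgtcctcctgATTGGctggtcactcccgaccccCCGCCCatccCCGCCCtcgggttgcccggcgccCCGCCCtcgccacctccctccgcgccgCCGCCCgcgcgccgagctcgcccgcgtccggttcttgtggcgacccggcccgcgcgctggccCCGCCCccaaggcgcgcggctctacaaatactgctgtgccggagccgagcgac
Eomes, chr9:118477939-118478188: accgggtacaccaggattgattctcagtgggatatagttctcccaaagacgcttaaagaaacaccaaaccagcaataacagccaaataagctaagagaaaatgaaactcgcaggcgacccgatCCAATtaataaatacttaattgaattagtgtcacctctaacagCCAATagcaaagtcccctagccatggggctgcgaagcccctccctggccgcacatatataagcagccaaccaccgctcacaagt
The Id4 promoter was the richest in G and C, at 75.6% with 35 CpG pairs, and the Foxo1 promoter had 56.0% with 20 CpG pairs. The Eomes promoter had 46.4% with 8 CpG pairs. The median over 32841 promoters of this length was 52.4% with 6 CpG pairs, and 97.0% of promoters held fewer CpG pairs than that of Id4. CCAAT was found in each of the 3 promoters (3 matches for Foxo1, 2 for Id4 and 2 for Eomes) and in 33.9% of all promoters. GGGCGG, the GC box, had 5 matches for Id4, 2 for Foxo1 and 0 for Eomes, and was present in 32.8% of all promoters. None of the 3 held the exact letters TATAAA (12.4% of all promoters) or GTAAACA, the core bound by FOXO proteins (3.17%), within these bases. Variants of TATAAA, such as the TATATAAG near the end of the Eomes sequence, were not counted. A match is a description of letters and not a binding site. The promoters of Zbtb16, Sall4, Dmrt1, Tcf15 and Taf4b are not shown.

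Between 24713620 and 44288334 reads were recovered per line, and label form 2 held the deeper libraries. For a transcript of 1 kb, a single read corresponded to 0.0227 to 0.0401 FPKM. This value did not follow the recovered reads exactly. Control line 37 had more reads than control line 29 (25259149 and 24713620) but also more FPKM per read (0.0401 and 0.0378). A gene without reads could still have a level of up to 0.0680 to 0.120 FPKM (3 reads), which covers counting error only. All 10 germ cell markers were above the filter, as were 5 of 8 markers of meiotic and haploid germ cells. Among the latter, Prm1 and Prm2, protamines of haploid germ cells, had 0 reads in every line. Tnp1 of the same list was at 8.23 FPKM, from 5.38 to 12.3 over the lines. The summed FPKM of the germ cell markers was 738.1 to 810.1 in label form 1 and 978.3 to 1166 in label form 2, so the forms were apart. The summed FPKM of 23 fibroblast markers was lowest in control line 45 (338.4) and highest in control lines 29 (1393) and 44 (1210), and the forms overlapped. Sertoli cell, Leydig cell and macrophage markers summed to at most 11.9, 1.90 and 19.1 FPKM.

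The factors spanned a wide range of levels. Dmrt1 stood highest, at 158.8 ± 21.1 FPKM (SD, n = 8), above 98.8% of the genes tested, and Zbtb16 followed at 61.9 ± 10.2. Taf4b was at 40.9 ± 5.40 FPKM, Sall4 at 33.6 ± 6.20 and Foxo1 at 28.6 ± 5.70. Tcf15 was at 17.5 ± 10.3 FPKM, Id4 at 12.8 ± 6.62 and Eomes, the lowest, at 4.70 ± 3.19. The ranges over the lines did not overlap between Dmrt1 and Zbtb16 or between Zbtb16 and Taf4b, and every other pair of neighbors in this order overlapped. Even so, Taf4b exceeded Sall4, and Sall4 exceeded Foxo1, within each of the 8 lines. Foxo1 exceeded Tcf15 in 7 of 8 lines, Tcf15 exceeded Id4 in 7 of 8, and Id4 exceeded Eomes in all 8.

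**Figure D1:**
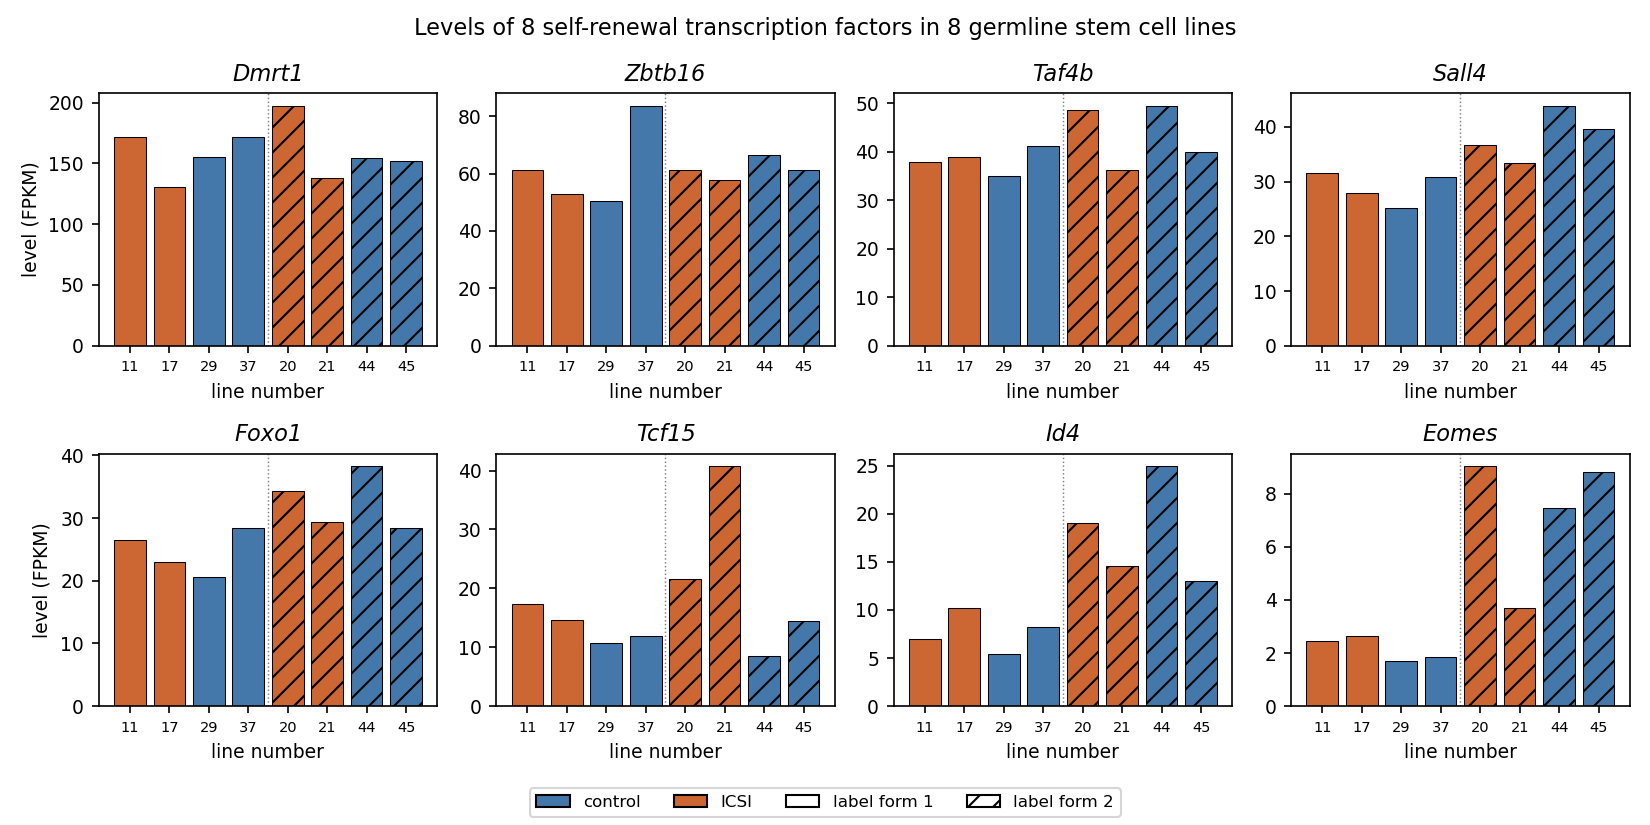
Level of each factor (FPKM, linear axis from 0) in the 8 lines, with control lines in blue, ICSI lines in orange and label form 2 hatched. Bars are single lines. The 4 bars of label form 2 are all above those of label form 1 for Id4, Eomes and Sall4. The forms lay fully apart, in either direction, for 26.8% of all genes tested. Tcf15 is highest in ICSI line 21, at 40.8 FPKM.

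The factors also differed in how far they varied from line to line. The SD of log2(FPKM + 1) over the 8 lines was 0.80 for Eomes, 0.68 for Id4 and 0.66 for Tcf15, which were larger than in 98.6%, 97.5% and 97.1% of the genes tested. The median gene had an SD of 0.21. Foxo1 (0.28), Sall4 (0.26), Zbtb16 (0.22), Dmrt1 (0.19) and Taf4b (0.18) were within the middle range of the genes tested. Of the sum of squares over the lines, label form took 79.4% for Eomes, 74.5% for Id4, 69.3% for Sall4 and 56.3% for Foxo1, against a median of 33.8% over the genes tested. It took 26.9% for Taf4b, 11.4% for Tcf15, 0.494% for Dmrt1 and 0.192% for Zbtb16. For Tcf15 the group took 53.5%, and nothing is read from the rank of its SD because it was chosen on that difference. Label form thus took the larger part of the spread for Eomes, Id4, Sall4 and Foxo1 and the smaller part for the other 4 factors.

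The comparison of label forms was tested with limma on log2(FPKM + 1), with the group as a covariate. Eomes, Id4 and Sall4 were higher in label form 2, Foxo1 and Tcf15 had positive differences that did not pass the test, and Taf4b, Zbtb16 and Dmrt1 had differences closest to 0. Of the 8 factors, 3 (37.5%) passed an adjusted p of 0.05, all of them higher. Of all genes tested, 16.0% passed in either direction, 10.2% as higher and 5.76% as lower. With both control lines rich in fibroblast marker RNA (29 and 44) left out, 0 of the 8 factors passed by limma, while the calls over all genes fell from 1917 to 401. The median log2 difference of the factors was 0.40, compared with 0.03 over all genes tested. Higher genes made up 64.0% of all calls here and 51.2% after quantile normalization. Because these are bulk samples, fewer cells of a type and less RNA per cell cannot be told apart. The germ cell marker sum and the sequencing depth moved with the label form as well, and their part in these differences was not tested. If the tool versions did differ as the processing notes say, they and the form cannot be told apart.

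**Figure D2:**
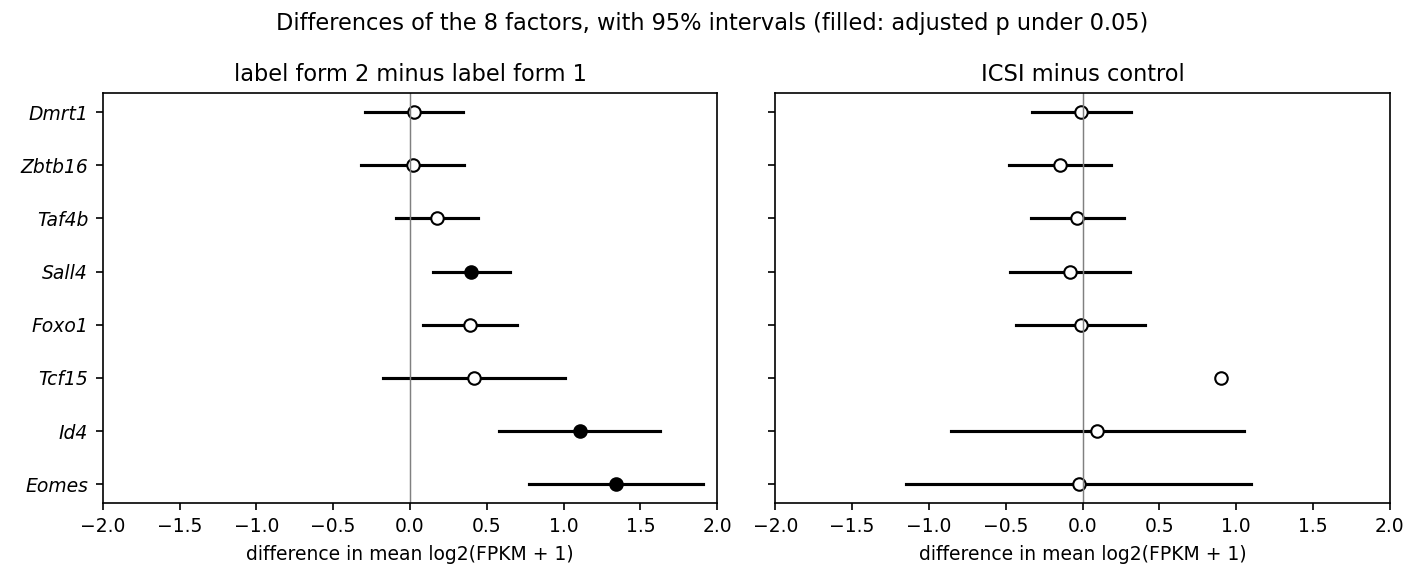
Difference in mean log2(FPKM + 1) for each factor, label form 2 minus label form 1 on the left and ICSI minus control on the right, with 95% intervals from limma. Filled points passed an adjusted p of 0.05, which were Sall4, Id4 and Eomes between the forms. Between the groups, none of the factors given a test passed. Tcf15 carries no interval and no test on the right because it was chosen on that difference.

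Eomes (chr9:118478212-118486132 of mm10, plus strand), a T-box factor that marks a subset of GFRA1-positive spermatogonia, showed the largest difference among the factors. Its level was 1.68, 1.83, 2.44 and 2.64 FPKM in control lines 29 and 37 and ICSI lines 11 and 17. In label form 2 it was 7.47 and 8.81 FPKM in control lines 44 and 45 and 9.05 and 3.68 FPKM in ICSI lines 20 and 21. The lowest line of label form 2, ICSI line 21, was still above every line of label form 1. The log2 difference was 1.34 ± 0.25 (SE; limma adjusted p = 0.0160), and the 4 lines of each form were fully apart (exact two-sided permutation p = 0.0286, the smallest that 70 assignments allow). On the FPKM + 1 scale this was 2.53-fold, with a 95% interval of 1.71 to 3.75, and the ratio of the mean FPKM values was 3.38. The lines of the forms lay fully apart for 3 of the 8 factors and, in either direction, for 26.8% of all genes tested. The reads behind Eomes numbered 185 to 1616 per line, and an antisense gene, Gm33460, shares 118 exon bases with it at a mean of 0.938 FPKM. The 2 relatives of Eomes, Tbr1 and Tbx21, were at 0.00641 and 0.0833 FPKM and were not tested.

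Id4 (chr13:48261228-48266026, plus strand), the inhibitor of DNA binding that marks cells with stem cell activity, divided the lines in the same way. It was at 5.38 and 8.23 FPKM in control lines 29 and 37 and at 6.98 and 10.3 FPKM in ICSI lines 11 and 17. It reached 25.0 and 13.0 FPKM in control lines 44 and 45 and 19.0 and 14.6 FPKM in ICSI lines 20 and 21. The highest line of label form 1 was thus below the lowest of label form 2, beside 26.8% of all genes tested with the forms fully apart. The log2 difference was 1.11 ± 0.23 (limma adjusted p = 0.0210), or 2.15-fold with an interval of 1.50 to 3.09, with an exact permutation p of 0.0286. Both the Id4 and the Eomes calls were lost when control line 37 was left out (adjusted p = 0.0586 for both), and likewise without ICSI line 11 (0.0722 for Id4 and 0.0542 for Eomes). They were also lost without control lines 29 and 44 together (0.0572 and 0.0707), where the log2 differences were 0.80 and 1.23.

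The relatives and partners of Id4 showed smaller differences. Id1 and Id3 bind the same class of proteins as ID4. Id1 was at 16.3 ± 2.11 FPKM in label form 1 and 19.7 ± 2.89 in label form 2, and Id3 at 17.7 ± 9.37 and 21.03 ± 3.33 (SD, n = 4), with limma adjusted p of 0.118 and 0.416. Id2 was at 0.492 FPKM and was not tested. Among 6 tested helix-loop-helix genes, beside 10.2% higher and 5.76% lower of all genes tested, 1 was higher in label form 2 and none lower. This was Tcf24, a basic helix-loop-helix gene, at 6.44 ± 0.715 and 8.43 ± 0.426 FPKM (adjusted p = 0.0469), and on the TPM scale, after quantile normalization and by limma-voom none of the 6 passed. Tcf3, the E protein that ID proteins sequester, was the most abundant of them and was at 72.6 ± 10.6 and 74.3 ± 13.7 FPKM (adjusted p = 0.913).

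Tcf15 (chr2:152143561-152149097, plus strand), a basic helix-loop-helix factor best known from somite formation and found in the most stem-like spermatogonia, was the factor chosen on its group difference. It was at 10.7, 11.9, 8.47 and 14.5 FPKM in control lines 29, 37, 44 and 45. The ICSI lines 11, 17, 20 and 21 were at 17.4, 14.6, 21.6 and 40.8 FPKM. Each ICSI line was above each control line, but the lowest ICSI value, 14.62 FPKM, was only just above the highest control value, 14.45 FPKM. The mean difference was 0.90 on the log2 scale, or 1.87-fold, given without a test, and it was 0.61 without ICSI line 21. Of the genes tested, 0.442% had the groups fully apart and 0.208% had all ICSI lines above all control lines, from which nothing is read because Tcf15 was chosen on this contrast. Within label form 1 the log2 difference was 0.46 and within label form 2 it was 1.35, and these values too are given without a test. Between the forms, Tcf15 differed by 0.42 ± 0.26 on the log2 scale (limma adjusted p = 0.280), and the forms overlapped. This value was 0.15 without ICSI line 21 and 0.65 without control line 44. Tcf15 has the shortest transcript model of the factors, 980 bases, and its reads numbered 272 to 1379 per line. Scx, its closest relative, was at 0.114 FPKM and was not tested.

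Sall4 (chr2:168748332-168767943, minus strand), a zinc finger factor shared with pluripotent cells, was measured at 25.2 and 30.9 FPKM in control lines 29 and 37 and at 31.5 and 27.8 FPKM in ICSI lines 11 and 17. In label form 2 it was at 43.9 and 39.6 FPKM in control lines 44 and 45 and at 36.7 and 33.5 FPKM in ICSI lines 20 and 21. The forms did not overlap, beside 26.8% of all genes tested with the forms fully apart, and ICSI lines 11 and 21 lay close together. The log2 difference was 0.40 ± 0.11 (limma adjusted p = 0.0411), or 1.32-fold with an interval of 1.11 to 1.57, and the exact permutation p was 0.0286. This call was the least stable of the 3, being lost without the expression filter (adjusted p = 0.0715), on the TPM scale (0.0518) and after quantile normalization (0.0743), and when any line but ICSI line 21 was left out (0.0716 to 0.104). Sall1 and Sall3, related genes, had lower means than Sall4, as the plot of related genes shows.

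Zbtb16 (chr9:48654297-48836222, minus strand), the zinc finger repressor also called PLZF whose loss empties the testis of stem cells, did not follow the label form. It was at 50.5, 83.7, 66.4 and 61.3 FPKM in control lines 29, 37, 44 and 45 and at 61.2, 52.8, 61.1 and 57.8 FPKM in ICSI lines 11, 17, 20 and 21. Control lines 29 and 37, both of label form 1, were the lowest and the highest of all. The means were 62.1 ± 15.2 FPKM in label form 1 and 61.7 ± 3.54 in label form 2 (log2 difference 0.02 ± 0.15, interval -0.32 to 0.35, limma adjusted p = 0.942). Zbtb32, a related zinc finger gene that also occurs in undifferentiated spermatogonia, was lower in label form 2. It was at 25.7 ± 2.69 FPKM in label form 1 and 14.6 ± 4.39 in label form 2 (log2 difference -0.81 ± 0.20, adjusted p = 0.0308).

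A list of 16 genes was taken for ZBTB16 and SALL4. It held mainly partners, which were subunits of the NuRD complex, other corepressors and the ubiquitin ligase scaffold Cul3. It also held Ddit4, listed as a gene that ZBTB16 raises and not as a partner. All 16 were tested, and 6 were higher in label form 2 and none lower, beside 10.2% and 5.76% of all genes tested. After quantile normalization 2 were higher and 2 lower, and without control lines 29 and 44, 2 were higher and none lower. Without the expression filter 1 was higher and none lower. Hdac2, a histone deacetylase, was at 53.2 ± 4.53 and 73.2 ± 6.01 FPKM in label forms 1 and 2 (log2 difference 0.45 ± 0.09, limma adjusted p = 0.0164). Mta1, a NuRD subunit, was at 18.6 ± 1.42 and 27.2 ± 4.46 FPKM (adjusted p = 0.0303), and Cul3 at 60.1 ± 6.76 and 82.4 ± 7.13 (0.0312). Ddit4, an mTORC1 inhibitor raised by ZBTB16 in spermatogonia, was at 15.3 ± 10.6 and 38.2 ± 9.46 FPKM (0.0318). The other 2 were Mta3 and Rbbp4. The 2 most abundant subunits, Chd4 and Rbbp7, were at 132.4 ± 11.9 and 167.4 ± 34.8 FPKM and at 98.3 ± 8.74 and 121.3 ± 16.2 FPKM and did not pass (adjusted p = 0.194 and 0.115).

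Dmrt1 (chr19:25505618-25604329, plus strand), a DM domain factor that represses entry into meiosis in mitotic spermatogonia, was the most abundant factor and among the least variable. It was at 155.2, 171.3, 154.3 and 152.0 FPKM in control lines 29, 37, 44 and 45. ICSI lines 11, 17, 20 and 21 were at 171.6, 130.8, 197.6 and 137.9 FPKM, and enclosed the range of the control lines. The means of the forms were 157.2 ± 19.2 and 160.4 ± 25.8 FPKM (log2 difference 0.02 ± 0.14, interval -0.29 to 0.34, limma adjusted p = 0.914). Other DM domain genes were present at much lower levels. Of these, Dmrt2 was higher in label form 2, from 2.00 ± 0.529 to 9.92 ± 4.27 FPKM (log2 difference 1.76 ± 0.28, adjusted p = 0.0115).

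Foxo1 (chr3:52268336-52353221, plus strand), the forkhead factor needed for stem cell maintenance, was intermediate. It was at 20.6, 28.4, 38.3 and 28.4 FPKM in control lines 29, 37, 44 and 45 and at 26.6, 23.0, 34.3 and 29.3 FPKM in ICSI lines 11, 17, 20 and 21. Control line 37 of label form 1, at 28.39 FPKM, and control line 45 of label form 2, at 28.37 FPKM, were nearly equal, and the forms overlapped only there. The log2 difference of 0.39 ± 0.13 was as large as that of Sall4 but did not pass (limma adjusted p = 0.0787, exact permutation p = 0.0571). Foxo3, its closest abundant relative, was at 26.9 ± 4.20 and 37.9 ± 7.57 FPKM in the 2 forms (adjusted p = 0.0600). Foxo6 was higher in label form 2, from 8.69 ± 0.611 to 16.0 ± 3.46 FPKM (log2 difference 0.79 ± 0.14, adjusted p = 0.0152). Of 11 tested regulators of FOXO1 in the PI3K and AKT pathway, 1 was higher and none lower (1 and 1 after quantile normalization). Over all genes tested these shares were 10.2% and 5.76%, and the median log2 difference of the 11 was -0.07. The higher gene was Ywhaz, a 14-3-3 protein that retains phosphorylated FOXO1 in the cytoplasm, at 41.0 ± 1.88 and 64.2 ± 11.6 FPKM (adjusted p = 0.0187). Sgk1, a kinase related to AKT, and Pik3r2, a regulatory subunit of PI3K, were at 45.01 ± 3.13 and 49.3 ± 9.93 FPKM and at 43.8 ± 9.03 and 39.0 ± 2.83 FPKM and did not pass (0.633 and 0.523). FOXO1 is controlled largely by its location in the cell, which RNA levels do not measure.

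Taf4b, on chromosome 18, was the steadiest of the factors across the lines. It was at 35.0, 41.2, 49.5 and 40.0 FPKM in control lines 29, 37, 44 and 45 and at 37.8, 39.0, 48.6 and 36.2 FPKM in ICSI lines 11, 17, 20 and 21. The 2 highest lines were both of label form 2, but ICSI line 21 of that form was below 3 lines of label form 1. The log2 difference was 0.17 ± 0.12 (limma adjusted p = 0.319). Taf4b was more abundant than its ubiquitous relative Taf4, as the plot of related genes shows. Of 15 tested genes for other TFIID subunits, 4 were higher in label form 2 and none lower, beside 10.2% and 5.76% of all genes tested. The median log2 difference of the 15 was 0.08. On the TPM scale or after quantile normalization 2 were higher, and 0 by limma without control lines 29 and 44. The 4 were Taf9b (58.1 ± 6.70 and 88.0 ± 9.35 FPKM, adjusted p = 0.0168), Taf5 (26.5 ± 0.999 and 33.5 ± 2.13, 0.0298), Taf2 (34.8 ± 1.80 and 43.6 ± 2.42, 0.0330) and Taf12 (4.99 ± 0.230 and 6.68 ± 0.610, 0.0392). Taf7l, a germ cell relative of Taf7, was the most abundant, at 215.9 ± 32.4 and 255.3 ± 23.7 FPKM (adjusted p = 0.199), followed by Taf7 at 86.0 ± 8.26 and 113.0 ± 17.2 FPKM (0.0730).

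**Figure D3:**
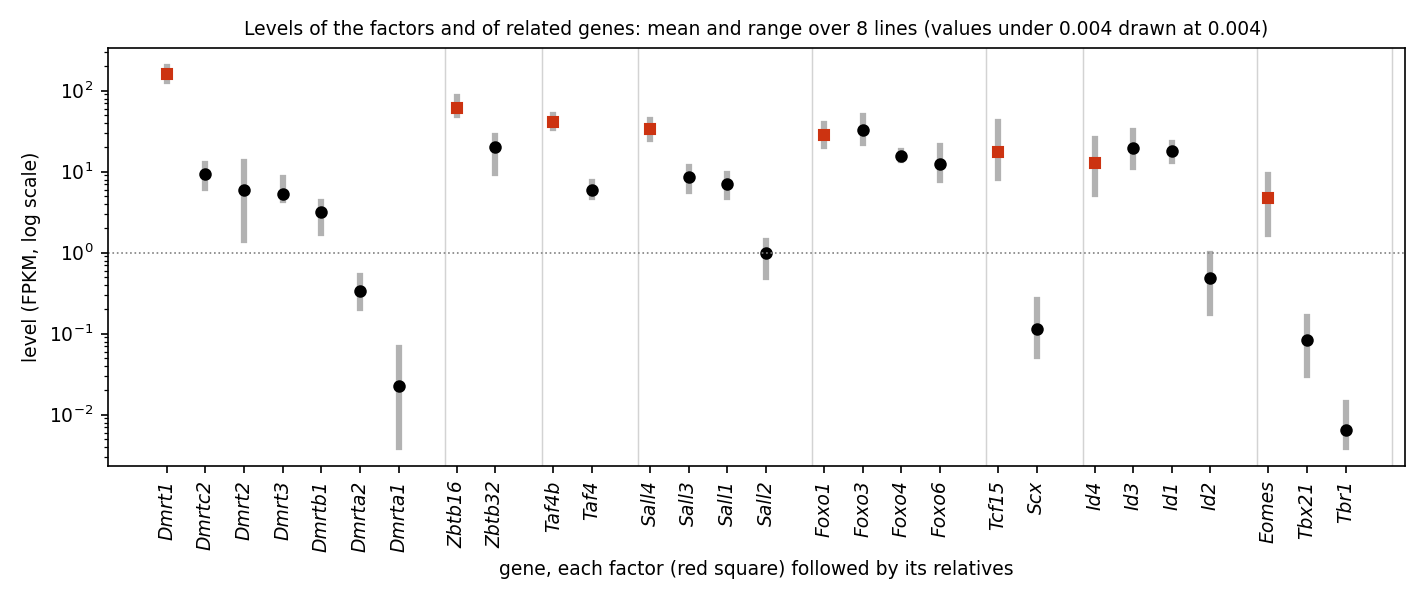
Mean level (FPKM, log axis) of each factor (red squares) and of related genes (black points), with gray bars from the lowest to the highest line. The dotted line marks 1 FPKM, the minimum for testing. Dmrt1, Zbtb16, Taf4b, Sall4, Tcf15 and Eomes have the highest mean of their family as listed, whereas Foxo3 is above Foxo1 and Id1 and Id3 are above Id4.

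The levels within each family were then compared, since FPKM is scaled for length. Taf4, at 5.92 FPKM, was below Taf4b (40.9 FPKM) in mean level, and Sall3 and Sall1 were at 8.60 and 6.97 FPKM against 33.6 for Sall4. Dmrtc2 (9.37 FPKM), Dmrt2 (5.96), Dmrt3 (5.26) and Dmrtb1 (3.15) were each far below Dmrt1 (158.8). Foxo3 (32.4 FPKM) was the most abundant FOXO gene, followed by Foxo1 (28.6), Foxo4 (15.6) and Foxo6 (12.4). Id3 (19.4 FPKM) and Id1 (18.0) exceeded Id4 (12.8) in mean. Of the 13 related genes that were tested, 2 were higher (Dmrt2 and Foxo6) and 1 lower (Zbtb32) in label form 2, beside 10.2% and 5.76% of all genes tested. The lower call was lost with no filter (2 higher and 0 lower) and without control lines 29 and 44 (1 higher and 0 lower).

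The comparison of ICSI lines with control lines gave no call among the 7 factors other than Tcf15. With limma and the group as the only term, 0 of 12000 genes (0%) passed an adjusted p of 0.05, while 55 had an unadjusted p under 0.05. The log2 differences of the 7 factors other than Tcf15 ran from -0.15 for Zbtb16 to 0.10 for Id4, each with an adjusted p of 1. Zbtb16 was at 65.5 ± 13.9 FPKM in control lines and 58.2 ± 3.94 in ICSI lines (interval -0.48 to 0.19 on the log2 scale), and Dmrt1 at 158.2 ± 8.86 and 159.5 ± 31.0 (-0.33 to 0.32). Sall4 was at 34.9 ± 8.46 and 32.4 ± 3.71 FPKM (-0.47 to 0.31), Foxo1 at 28.9 ± 7.28 and 28.3 ± 4.76 (-0.43 to 0.41) and Taf4b at 41.4 ± 6.02 and 40.4 ± 5.58 (-0.34 to 0.27). The groups overlapped for each of these 7 factors. The intervals were wide for the factors that divided by label form, being -0.86 to 1.05 for Id4 and -1.15 to 1.10 for Eomes. With label form as a covariate they narrowed to -0.43 to 0.62 for Id4 and -0.59 to 0.54 for Eomes, and the adjusted p stayed at 1.

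Within the label forms, the group differences of several factors changed direction. Eomes differed by 0.36 in label form 1 and -0.41 in label form 2 (ICSI minus control, log2), Id4 by 0.31 and -0.11, and Sall4 by 0.09 and -0.25. Zbtb16 had negative differences in both forms, of -0.19 and -0.10. The interaction of group and form was not past the threshold for any factor other than Tcf15, which is given without a test (limma adjusted p = 1). Of 12000 genes, 0 passed it (147 at an unadjusted p under 0.05). Apart from Tcf15, for which no test is given, no gene of the lists described here passed the test between the groups either.

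Genes that act beside these factors in undifferentiated spermatogonia were also compared between the forms. Of 28 tested regulators, 8 were higher in label form 2 and 3 lower, with a median log2 difference of 0.20 (8 and 5 after quantile normalization, 4 and 0 without control lines 29 and 44). Foxc2, a forkhead factor of quiescent stem cells, was at 9.38 ± 1.17 and 27.7 ± 3.25 FPKM (log2 difference 1.47 ± 0.12, limma adjusted p = 0.00312). Etv5, which GDNF and FGF2 induce, was at 40.8 ± 9.26 and 90.7 ± 8.90 FPKM (adjusted p = 0.00792), and Lhx1, also induced by GDNF, at 4.75 ± 1.05 and 18.1 ± 7.68 (0.00819). Egr2 and Tsc22d3 were at 30.2 ± 2.30 and 61.5 ± 15.9 FPKM and at 57.6 ± 5.29 and 95.7 ± 14.2 FPKM (0.0143 for both). The other higher genes were Pou3f1, Egr3 and Erf, and the lower ones were Rhox10, Utf1 and Pou5f1. Bcl6b, a GDNF target and the most abundant of the list, was at 93.7 ± 26.8 and 161.2 ± 69.1 FPKM and did not pass (adjusted p = 0.121), nor did Egr4, at 119.3 ± 25.5 and 90.3 ± 14.2 FPKM (0.152). Calls in this class thus went in both directions, beside 10.2% higher and 5.76% lower over all genes tested.

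Regulators of differentiating spermatogonia included more genes that were lower. Of 10 tested, 3 were lower and 1 higher in label form 2, beside 5.76% and 10.2% of all genes tested. The median log2 difference of the 10 was -0.42. After quantile normalization 5 were lower and 1 higher, and by limma without control lines 29 and 44, 0 were lower and 0 higher. Without the expression filter 1 was lower and 0 higher. Rarg, a retinoic acid receptor that makes spermatogonia competent to differentiate, was at 16.3 ± 1.88 FPKM in label form 1 and 8.72 ± 2.20 in label form 2 (a log2 difference of -0.85 ± 0.15, with a limma adjusted p of 0.0133). Kit, the receptor of differentiating spermatogonia, was at 7.74 ± 1.57 and 4.08 ± 1.25 FPKM (adjusted p = 0.0351), and Lmo1 at 7.47 ± 2.81 and 3.33 ± 1.13 (0.0377). Ccnd2, cyclin D2, was the higher one, at 72.7 ± 5.51 and 125.1 ± 32.5 FPKM (0.0273). Sohlh1 and Crabp1, the most abundant of the other genes, were at 136.3 ± 11.1 and 103.6 ± 20.1 FPKM and at 143.9 ± 14.9 and 109.1 ± 30.4 FPKM and did not pass (0.0867 and 0.156).

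**Figure D4:**
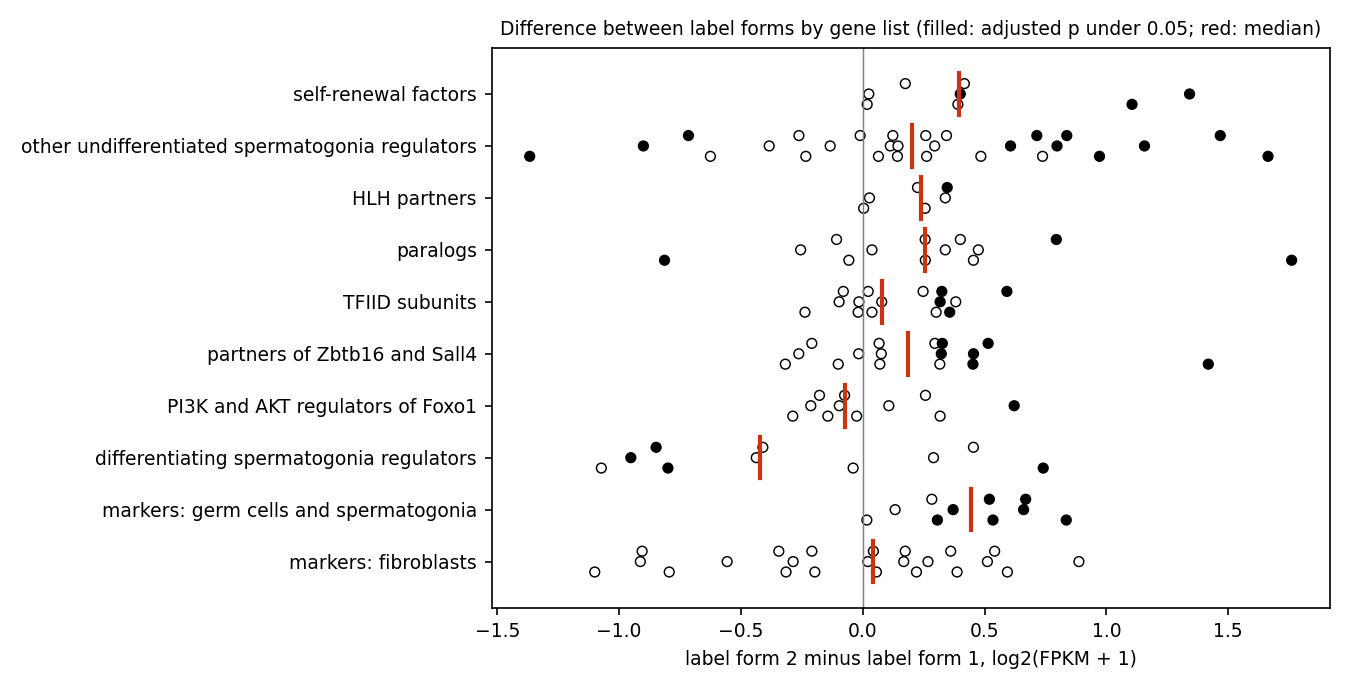
Difference between label forms in log2(FPKM + 1) for each tested gene of the lists (points, filled where the adjusted p was under 0.05), with the median of each list as a red bar. The self-renewal factors have a median of 0.40, the germ cell markers 0.45 and the regulators of differentiating spermatogonia -0.42, and no fibroblast marker is filled.

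The marker genes of cell types were set beside these lists. Of 10 germ cell and spermatogonial markers, 7 were higher in label form 2 and none lower. After quantile normalization 4 were higher, without the expression filter 2, and without control lines 29 and 44, 1. Over all genes tested, 10.2% were higher and 5.76% lower. Cd9, the surface protein used to select the cells, was at 64.0 ± 11.9 and 115.0 ± 20.3 FPKM (limma adjusted p = 0.0162), Dazl at 277.0 ± 21.9 and 397.1 ± 23.1 (0.0173), Gfra1 at 41.5 ± 3.13 and 67.5 ± 13.6 (0.0216) and Ddx4 at 195.3 ± 14.7 and 252.8 ± 18.7 (0.0385). None of the 23 fibroblast markers passed in either direction by limma, here or with any of the scalings tried, and the most abundant of them, S100a4, Fn1 and Sparc, had adjusted p of 0.415, 0.911 and 0.983. Of 5 tested markers of meiotic and haploid cells, 2 were higher, Sycp3 and Sycp1, at 80.6 ± 12.2 and 125.8 ± 11.0 FPKM and at 52.0 ± 7.94 and 76.4 ± 8.86 FPKM. With no filter or after quantile normalization 1 of these was higher, and without control lines 29 and 44 none was. Of 4 tested Sertoli cell markers, Sox9 was higher (1.03 ± 0.205 and 3.33 ± 1.57 FPKM) and Wt1 lower (2.93 ± 0.510 and 1.23 ± 0.294 FPKM), neither of them without control lines 29 and 44, and no tested marker of Leydig cells (1) or macrophages (2) passed. The summed level of fibroblast markers had a Pearson's r with the factors, after removing the mean of each form, of -0.43 for Tcf15 to 0.30 for Taf4b over 8 lines.

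The factors were also compared with each other across the lines. Pearson's r of log2(FPKM + 1) was computed after removing the mean of each label form, and all values share the same 8 libraries. Among 28 pairs, Foxo1 and Taf4b had the highest r, at 0.813, followed by Id4 and Taf4b (0.795), Sall4 and Foxo1 (0.775) and Zbtb16 and Foxo1 (0.758). A total of 5 pairs exceeded 0.7 and none were under -0.7. How often pairs of other genes exceed 0.7 was not computed, so nothing is read from this count. Tcf15 had a negative r with each of the other 7 factors, from -0.58 with Sall4 to -0.11 with Dmrt1. The group difference on which Tcf15 was chosen was not removed, so nothing is read from its values. Dmrt1 and Id4, the most and the second least abundant factors, had an r of -0.01.

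**Figure D5:**
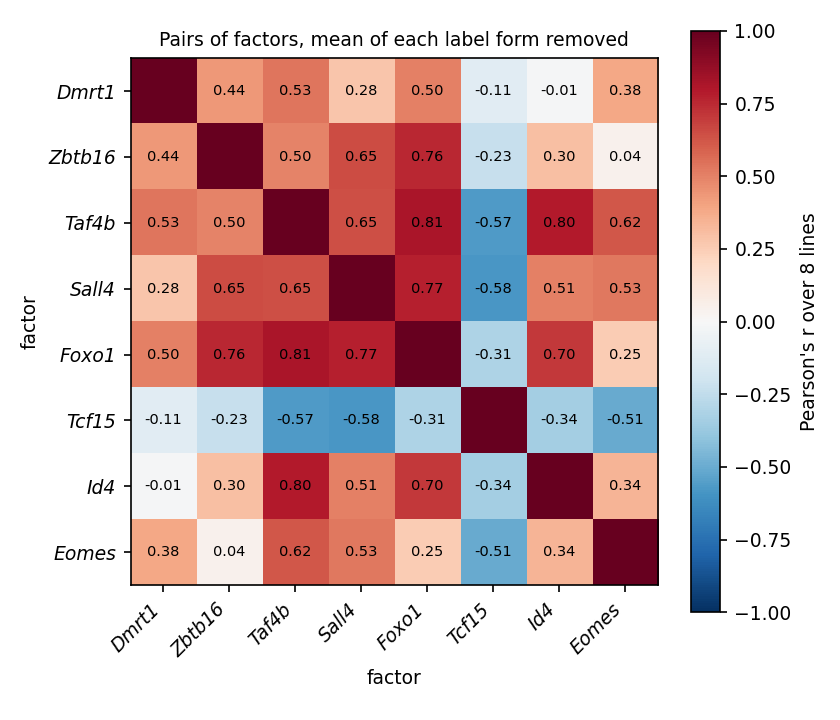
Pearson's r between pairs of factors over 8 lines, with the mean of each label form removed. The color scale runs from -1 (blue) to 1 (red). Foxo1 is red with Taf4b, Sall4 and Zbtb16, and the row of Tcf15 is blue with the other 7 factors. The group difference on which Tcf15 was chosen was not removed.

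Across 11592 protein coding genes, those whose pattern over the 8 lines was most like each factor were named by the same measure. For Eomes they were Tmem218 (r = 0.965) and Sacm1l (0.954), and for Id4 they were Hexim2 (0.991) and Nell2 (0.987). Sall4 was closest to Ctdsp2 (0.980) and Lpp (0.967), Foxo1 to Topaz1 (0.976) and Prps1l3 (0.973), and Taf4b to Terf1 (0.994) and Vcpip1 (0.994). Zbtb16 was closest to Hccs (0.998) and Atg2a (0.997), and Dmrt1 to Polr2j (0.966) and Akr1b10 (0.965). Tcf15 had the fewest like genes, 5 with r over 0.9 compared with 30 to 207 for the other factors, and the nearest were Sytl5 (0.950) and Mrps31 (0.939). Nothing is read from this count, since the group difference on which Tcf15 was chosen stayed in its pattern. These values describe the 8 libraries only.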

How the data were processed

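RNA-seq was measured in 8 GS cell lines, 4 per group. The authors trimmed reads with cutadapt, mapped them to mm10 with STAR, counted them with HTSeq and deposited FPKM values. The submitters' processing notes name STAR 2.7.9a and HTSeq 0.13.5 for label form 1 and STAR 2.6.0c and HTSeq 0.11.2 for label form 2, while the study's methods name STAR 2.7.9a and HTSeq 0.13.5 for all 8 libraries. The deposited table also holds the log2 fold change and adjusted p-value of the authors' own comparison, made with DESeq2, which were not used. Different library kits are named in the labels and in the study's methods, so strandedness is uncertain. This touches Sall4, Foxo1, Id4 and Eomes, each of which shares exon bases with genes of the opposite strand, all below 1 FPKM.

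Low FPKM values were whole multiples of a step per line, and reads were recovered as whole numbers, within 0.02, for all 12000 genes tested. Union exon lengths of GENCODE M21 (GRCm38, the assembly of mm10) gave whole numbers for 23544 of the 23964 genes above 0. Elsewhere the nearest other length that gave whole numbers was used, where there was one. Genes averaging 1 FPKM or more were tested with limma 3.58.1 in R 4.3.3 (lmFit, eBayes with trend, two-sided) on log2(FPKM + 1), with Benjamini-Hochberg adjustment over all genes tested and a threshold of 0.05. The pseudocount of 1 understates changes of low genes. The group was the only term for ICSI against control, as the study states no covariate. Group was a covariate for the label form, and an interaction was added. The study used a count model. Here a linear model on the deposited unit was the main test, and limma-voom on the recovered reads was an alternative. Exact permutation used all 70 assignments of the lines. The fit was tested on simulated data. The factors and the gene lists were chosen with earlier results of these data known. Named genes were the factors, the relatives tested, up to 4 genes per list past the threshold between forms, the 3 most abundant genes of each list, and the 2 genes most like each factor. Where further genes are named to complete a count, they were chosen after their values were seen. A gene of the PI3K and AKT list is not reported here.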

Additional observations from a re-analysis of the deposited data

Results flagged for a closer look

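Dmrt1 in control line 37, at 171.3 FPKM, stood apart from the other control lines, which ran from 152.0 to 155.2 FPKM. The gap to the nearest line took up 0.836 of the range of the control lines. This was 1 of 32 groups of 4 lines examined over the 8 factors (by group and by label form), and chance alone marks about 1 in 20 such groups. Control line 37 also had the highest Zbtb16 level of all lines, at 83.7 FPKM.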

How the results depend on the processing

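No paired analysis was possible because the control and ICSI lines share no replicate number. Between the label forms, the log2 differences of Eomes, Id4, Sall4, Foxo1, Taf4b and Tcf15 stayed positive under each alternative tried (pseudocount, filter, TPM, quantile normalization, limma-voom, covariate and lines left out). Over the 8 factors, 101 of the alternative values kept their direction and side of the threshold, 17 lost the call and 10 reversed. Sall4 lost its call with no filter (0.40), on the TPM scale (0.36) and after quantile normalization (0.29). Zbtb16 and Dmrt1 reversed on the TPM scale (-0.0353 and -0.0292) and after quantile normalization (-0.12 and -0.19). With control lines 29 and 44 left out (an alternative added once the data had been seen), the values were 0.80 for Id4, 1.23 for Eomes, 0.27 for Sall4, all without a call, and -0.11 for Zbtb16. Leaving out each line in turn gave 0.88 to 1.25 for Id4, 1.20 to 1.64 for Eomes, 0.31 to 0.47 for Sall4, 0.15 to 0.65 for Tcf15, 0.29 to 0.47 for Foxo1, 0.10 to 0.27 for Taf4b, -0.12 to 0.17 for Zbtb16 and -0.10 to 0.10 for Dmrt1. The genes called between forms numbered 1255 with no filter (more genes tested), 401 without control lines 29 and 44 (fewer lines), and from 204 without ICSI line 11 to 2693 without ICSI line 21, compared with 1917 over all lines. They numbered 284 without control line 37, 427 without ICSI line 17, 704 without control line 44, 1036 without control line 29, 1059 without control line 45 and 1229 without ICSI line 20.

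Between ICSI and control lines, the count of genes called was 1 with no filter and 0 under each other alternative. Zbtb16 stayed negative throughout, and 23 values of the factors other than Zbtb16 and Tcf15 reversed around 0 without any call. Tcf15 stayed positive, from which nothing is read because it was chosen on this contrast. Eomes was 0.0134 and 0.02001 with pseudocounts of 0.1 and 0.01 and 0.0198 on the TPM scale. Foxo1 and Dmrt1 were 0.0063 and 0.0109 on the TPM scale and 0.0118 and 0.0490 after quantile normalization. With each line left out in turn, the values ran from -0.22 to 0.0386 for Sall4, -0.16 to 0.13 for Foxo1, -0.21 to 0.46 for Id4, -0.12 to 0.0539 for Taf4b, -0.37 to 0.30 for Eomes and -0.12 to 0.0812 for Dmrt1. Except where the number of genes or lines is named, the cause of these changes was not tested.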
